A study of Homo sapiens with 19 samples.

Results

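The 8 genes AQP9, GFPT2, GJB2, KCNJ15, LBH, PDGFRB, PID1 and KIF25 were taken by name from the 31033 gene names on the array. They were chosen by their difference between vitamin C (vit C)-treated and untreated (UT) cells, because earlier results of these arrays put them higher in vit C-treated cells from 24 h onwards. Their differences between vit C-treated and UT cells are therefore given as a description and without p-values. The cells were THP-1, a human monocytic leukaemia line that becomes macrophage-like and adherent when given the phorbol ester PMA. All 8 groups, the UT cells included, had been differentiated with 30 nM PMA and rested. After that, 1 arm received 0.1 mM vit C and the other did not, and RNA was isolated 8, 24, 48 and 96 h later. UT cells were measured on 2, 3, 2 and 3 one-colour Agilent arrays at these time-points, and vit C-treated cells on 3, 2, 2 and 2. A single line cannot show how far the values hold in primary macrophages.

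Vit C is an antioxidant and a cofactor of dioxygenases that hydroxylate collagen, HIF subunits and methylated bases and histones. The 8 genes belong to separate families. AQP9, KCNJ15 and GJB2 encode proteins that move water, small solutes, potassium or metabolites across membranes, PDGFRB and PID1 encode a growth factor receptor and an adaptor protein, GFPT2 encodes a metabolic enzyme, LBH a transcription cofactor and KIF25 a motor protein.

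The 8 genes had 12 probes in all. Each array's log2 signals were set relative to their 75th percentile, so a value of 0 is the level below which 75% of an array's spots lay. Each gene is represented by its brightest probe, and levels are not compared between genes because probes differ in efficiency. In a bulk sample, fewer cells of a type and less RNA per cell cannot be told apart. The 75th percentile of the raw signal ranged from 296.8 to 923.7 over the 19 arrays, and the scanner software flagged 57.5% to 72.8% of an array's probes as well above background. The probes of 7 of the genes were well above background on all 19 arrays, and those of KIF25 on all but some UT arrays described with that gene.

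The arrays lay on 4 slides, and the slides followed the groups. Slide 1 held all UT arrays at 8, 24 and 48 h and the first UT array at 96 h. Slide 2 held the other 2 UT arrays at 96 h, all vit C arrays at 8 and 24 h and the first vit C array at 48 h. The second vit C array at 48 h was on slide 3, and both vit C arrays at 96 h were on slide 4, which was scanned on another day. Slide 3 held no other array, so with slide as a fixed term the difference at 48 h rests on the first vit C array alone. At 96 h, vit C and slide cannot be told apart. At the other time-points they could be separated only through the UT arrays at 96 h, the only group present on both slides 1 and 2. Within that group, the mean of the slide 2 arrays minus the slide 1 array was 0.93 for GJB2, 0.83 for GFPT2 and 0.82 for KIF25 on the log2 scale, and between -0.04 and 0.39 for the other 5 genes.

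Over the 8 genes, the median log2 difference between vit C-treated and UT cells was 0.48, 1.65, 1.57 and 1.42 at the 4 time-points, beside medians of -0.05, -0.13, -0.01 and -0.15 over all 31033 genes. The vit C arrays all lay above the UT arrays for 5 of the 8 genes at the first time-point, for 7 at the next and for all 8 at the last 2, where the groups of LBH at 96 h were equal to the second decimal at their nearest arrays. The same was true of 14.9%, 12%, 22.3% and 10.7% of all genes. A gene was called, after the methods, at a log2 fold change of 1 or more in size with q no higher than 0.05 (limma, Benjamini-Hochberg). By this rule 0 of the 7 members that were tested at 8 h and all 8 at 24, 48 and 96 h were called higher. Of all genes tested, 0.33%, 0.835%, 2.1% and 2.73% were called higher at the 4 time-points. Since the members were chosen by this contrast, nothing is read from their counts. With slide as a further term, the median differences at 8, 24 and 48 h were -0.03, 1.18 and 1.15, and 0 members were called.

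**Figure D1:**
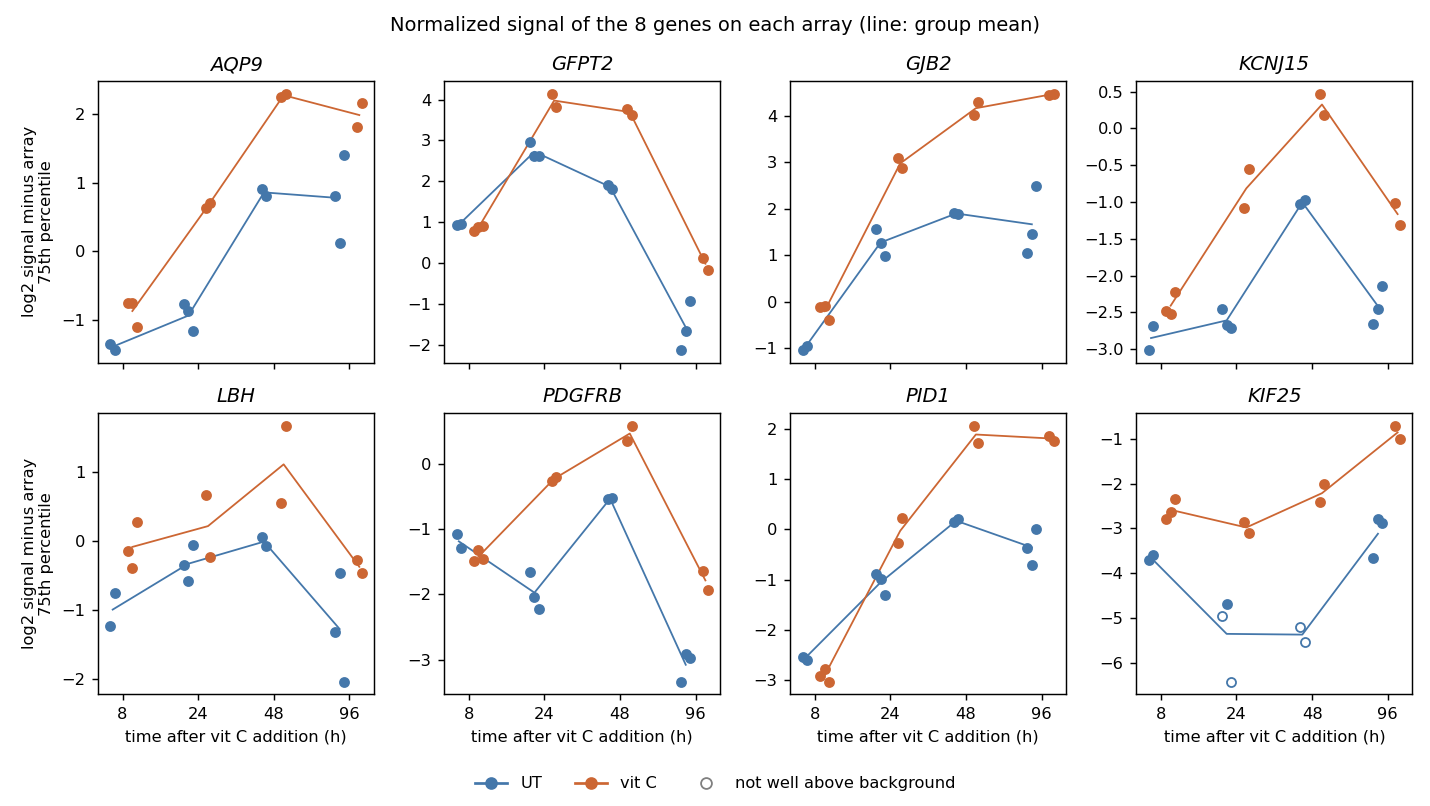
Log2 signal minus the array's 75th percentile (vertical axis) of the brightest probe of each gene on each of the 19 arrays, by time after vit C addition in h (horizontal axis, evenly spaced). Points are arrays, blue for UT and orange for vit C-treated cells, lines join group means, and open points were not well above background. From 24 h the vit C points lie above the UT points of the same time-point in every panel except LBH at 24 h.

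The labelled cell type was checked against marker genes. All 16 monocyte and macrophage markers were on the array, and 15 were well above background on all 19 arrays, among them CSF1R, the receptor of the growth factor that maintains macrophages, at 7.89 to 8.63 and CD14, the lipopolysaccharide co-receptor, at 0.39 to 5.74. LYZ, which encodes lysozyme, was well above background on 18. Of the 15 tested at 48 h, ITGAM (-1.17, q = 0.00332 in limma) and MSR1 (-1.09, q = 0.0474) were called lower. Of the 15 tested at 96 h, MSR1 was called lower (-1.07, q = 0.0259) and LYZ higher (1.17, q = 0.0428). These calls were not run under the alternative settings. Because PDGFRB is best known from fibroblasts and mural cells, and AQP9 and KCNJ15 are also expressed in granulocytes, markers of those cells were read too. The fibroblast genes COL1A2, COL5A1 and POSTN, the smooth muscle gene CNN1 and the granulocyte genes CEACAM8, PGLYRP1, VNN3 and CRISP3 were well above background on 0 arrays. Others were well above background on all 19 arrays. Of the fibroblast genes these were COL6A3, THY1, FAP, PDGFRA and TWIST1, and of the mural and smooth muscle genes CSPG4, NOTCH3 and TAGLN. Of the granulocyte genes they were CSF3R, MNDA, AZU1, PRTN3 and S100P. Of 14 fibroblast markers, 9 were well above background on both vit C arrays at 48 h and 6 on both UT arrays. Their mean signal was 0.67 to 0.68 against 0.75 to 0.82. A mean signal here is the log2 of the mean linear signal of a list, so the brightest markers weigh most. The median log2 difference of the 14 markers at 48 h was 0.22, against -0.01 over all genes. Of 10 mural and smooth muscle markers, 6 were well above background on all arrays of either group at 48 h. Their mean signal was -1.28 to -1.05 in vit C-treated and -1.17 to -0.94 in UT cells, and the median log2 difference of the 10 was 0.22. Of 22 granulocyte markers, 15 were well above background on both vit C arrays at 96 h and 11 on the UT arrays, with a mean signal of -1.62 to -1.54 against -2.34 to -1.33. These vit C arrays were the brightest of the series, with 69.8% and 72.8% of all probes well above background against 60.0% to 64.8% on the UT arrays at 96 h. At 24 h, 11 granulocyte markers were so in vit C-treated and 9 in UT cells, with a mean signal of -2.53 to -2.43 against -2.20 to -2.03. The median log2 difference of the granulocyte markers was -0.35 at 24 h and -0.13 at 96 h, beside -0.13 and -0.15 over all genes. Some markers were higher with vit C. At 48 h, 2 of 10 fibroblast markers tested were called higher and 0 lower. At 96 h 2 of 10 were called higher and 2 lower. Of the latter, COL3A1 was called by a probe that was not well above background throughout either group. Of all genes tested, 2.1% were called higher and 1.53% lower at 48 h, and 2.73% and 10% at 96 h. DCN (decorin), a matrix proteoglycan, rose by 2.35 at 48 h (q = 0.00815 in limma) and by 2.48 at 96 h (q = 0.00186), the first call being lost with slide as a term (1.88) and without UT replicate 1 or either vit C array. LUM (lumican), another, was well above background on both vit C arrays and no UT array at 48 and 96 h, which put its signal with vit C at least 2.29-fold higher than in UT cells at 48 h (q = 0.000122). At 96 h the bound was at least 6.18-fold (q = 1.12e-06). With normexp background correction its log2 difference was 0.56 and 0.99 and neither was called. FAP, a surface protease, fell by 1.16 at 96 h (q = 0.0173), a call lost with normexp (-0.97) and without UT replicate 3 or either vit C array. Of the mural and smooth muscle markers 0 of 6 tested were called at 48 h, and at 96 h 1 of 9 was called higher and 1 lower. MYH11, a smooth muscle myosin, rose by 2.03 (q = 0.0201), or by 0.79 with normexp, a call lost without either vit C array, and ABCC9 was called lower by a probe that was not well above background. Of 22 granulocyte markers, 1 was called higher and 1 lower at 48 h, and 3 and 3 at 96 h. The 3 lower at 96 h were CEACAM8, VNN3 and CRISP3, which were not well above background on any array. S100P rose by 3.65 at 48 h (q = 0.0247), where the UT arrays had an SD of 2.17 and the call was lost with slide as a term (5.55) and without UT replicate 2 (2.12) or either vit C array. It was 5.18 without UT replicate 1 and 2.54 with normexp. AZU1 (azurocidin), a neutrophil granule protein that was well above background on all 19 arrays, fell by 1.36 at 48 h (q = 0.0324), a call lost with normexp (-0.69), with slide as a term (-0.86), with the replicate number as a block and without any 1 of the 4 arrays. FCGR3B, a neutrophil Fc receptor, rose by 3.13 at 96 h (q = 0.00554), or by 2.04 with normexp, a call lost without vit C replicate 1. The other 2 higher at 96 h were FPRL1 (1.62, q = 0.0299) and ELA2 (1.48, q = 0.0369), and with normexp they gave 0.33 and -0.05, uncalled. Both calls were also lost without UT replicate 1 or either vit C array, that of FPRL1 without UT replicate 2 and that of ELA2 with the replicate number as a block. At 8 and 24 h, 0 markers of these 3 lists were called. The part of such cells in the values of the 8 genes was not tested.

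AQP9 encodes aquaglyceroporin 9, a channel for water, glycerol and other small uncharged solutes that is abundant in liver and leucocytes. Of the members it has the promoter with the fewest G and C bases. Promoter windows are 250 bases before to 50 after an annotated start, from RefSeq for GRCh38.p14, and 7 of the 8 genes, all except PID1, had at least 1. AQP9 had 2 windows with 36.0% and 40.7% G and C, beside a median of 58.7% over 35116 windows. The 250 bases before its upstream start, chr15:58137919-58138168 on the plus strand, are shown because they hold, in capitals, a match to the C/EBP motif TTGCNNAA, which is read by factors active in myeloid cells and was found on either strand in 10.5% of all windows.
AQP9: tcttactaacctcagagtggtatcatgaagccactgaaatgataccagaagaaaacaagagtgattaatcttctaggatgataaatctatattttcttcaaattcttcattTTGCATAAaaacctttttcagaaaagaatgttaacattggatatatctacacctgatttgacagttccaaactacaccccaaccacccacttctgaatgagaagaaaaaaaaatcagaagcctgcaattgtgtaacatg

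The normalized signal of AQP9 was -1.35 and -1.44 on the UT arrays at 8 h and -0.76, -0.76 and -1.1 on the vit C arrays. At 24 h it was -0.77, -0.88 and -1.17 in UT and 0.63 and 0.70 in vit C-treated cells. The vit C arrays lay above the UT arrays at both time-points, by a wide margin at 24 h. At 48 h the values were 0.91 and 0.81 in UT and 2.26 and 2.30 in vit C-treated cells. At 96 h they were 0.80, 0.12 and 1.41 in UT and 1.82 and 2.16 in vit C-treated cells. The ranges did not overlap, although the UT arrays spread widely at 96 h. The log2 difference was 0.52, 1.60, 1.42 and 1.21 at the 4 time-points, each with an SE of 0.29 to 0.31, or 1.43-, 3.03-, 2.67- and 2.31-fold. Adding slide to the fit gave 0.56, 1.64 and 1.44 at 8, 24 and 48 h. UT cells also gained AQP9 signal with time, by 1.80 from 24 to 48 h. In the order of the 8 group means, vit C at 48 h and at 96 h came first and did not overlap, followed by UT at 48 h, UT at 96 h and vit C at 24 h, whose neighbours overlapped.

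KCNJ15 encodes the inward rectifier Kir4.2, a potassium channel of epithelia that is also present in leucocytes. Its promoter window is shown because it was the only one among the members to hold an AP-1 motif, TGANTCA, the site of the factors that phorbol esters activate, and because it also holds the C/EBP motif on the minus strand. The AP-1 motif was in 7.71% of all windows and began 35 bases before the start. Capitals mark both matches in chr21:38272258-38272507, plus strand.
KCNJ15: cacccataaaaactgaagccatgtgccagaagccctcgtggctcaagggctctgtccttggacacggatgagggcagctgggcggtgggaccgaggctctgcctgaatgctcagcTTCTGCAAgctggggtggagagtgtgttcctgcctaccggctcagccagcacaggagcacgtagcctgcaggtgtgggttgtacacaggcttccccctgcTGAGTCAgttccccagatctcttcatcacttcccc

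On the UT arrays the normalized signal of KCNJ15 was -3.01 and -2.69 at 8 h and -2.45, -2.67 and -2.71 at 24 h. On the vit C arrays it was -2.48, -2.52 and -2.23 at 8 h and -1.08 and -0.55 at 24 h. UT cells had thus hardly changed by 24 h (by 0.24), while the vit C mean was 1.59 above its own value at 8 h. At 48 h the signal was -1.03 and -0.98 in UT and 0.47 and 0.18 in vit C-treated cells. At 96 h it was -2.66, -2.45 and -2.14 in UT and -1.02 and -1.31 in vit C-treated cells. Both arms had their highest mean at 48 h and lost 1.41 and 1.49 by 96 h, UT and vit C respectively. The log2 difference was 0.43, 1.79, 1.33 and 1.25, with an SE of 0.22 to 0.24, or 3.47-fold at 24 h. In the fit with slide it was 0.07, 1.43 and 1.11 at 8, 24 and 48 h. Over the alternative settings the lowest differences were 1.14, 1.02 and 0.73 at 24, 48 and 96 h. Across the 19 arrays KCNJ15 was the member closest to the mean of the other 7 (standardized signals, Pearson r = 0.95, arrays that share the 8 groups), and 5 of its 7 neighbouring pairs of group means overlapped.

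GJB2 encodes connexin 26, a gap junction protein that passes ions and small metabolites between cells. Its signal was -1.04 and -0.95 on the UT arrays and -0.12, -0.10 and -0.40 on the vit C arrays at 8 h. At 24 h it was 1.56, 1.27 and 0.99 in UT and 3.09 and 2.87 in vit C-treated cells. The gain from 8 to 24 h was 2.27 in UT and 3.19 in vit C-treated cells, so most of it was present without vit C. At 48 h the values were 1.91 and 1.89 in UT and 4.03 and 4.31 in vit C-treated cells, and at 96 h they were 1.04, 1.46 and 2.50 against 4.46 and 4.48. GJB2 was the only member whose vit C mean was still highest at 96 h other than KIF25, and its log2 difference widened from 0.79 to 1.71, 2.27 and 2.80 (SE 0.32 to 0.35), or 6.98-fold at 96 h. The second probe gave 0.72, 1.26, 1.91 and 2.63, and the probes correlated over the 19 arrays with r = 0.987. Once slide was added, the brightest probe gave -0.14, 0.78 and 1.20 at 8, 24 and 48 h. The UT slides differed for this probe by 0.93 at 96 h and for the second by 0.06.

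PDGFRB encodes the beta receptor of platelet-derived growth factor, a receptor tyrosine kinase that drives growth and migration of mesenchymal cells. At 8 h its signal was -1.08 and -1.29 in UT and -1.48, -1.32 and -1.46 in vit C-treated cells, so the vit C arrays were the lower ones. At 24 h it was -1.65, -2.04 and -2.23 in UT and -0.26 and -0.19 in vit C-treated cells. Between these time-points the UT mean moved by -0.79 and the vit C mean by 1.20. At 48 h the values were -0.54 and -0.52 in UT and 0.35 and 0.59 in vit C-treated cells, and at 96 h they were -3.34, -2.92 and -2.98 against -1.64 and -1.93. The log2 difference was -0.23, 1.75, 1.00 and 1.30 (SE 0.21 to 0.23), largest at 24 h at 3.37-fold. The fit with slide gave -0.62, 1.36 and 0.50 at 8, 24 and 48 h. Over the alternative settings the lowest differences were 1.24, 0.50 and 0.66 at 24, 48 and 96 h. Both arms were highest at 48 h and lost over 2 units by 96 h, 2.55 in UT and 2.26 in vit C-treated cells, so that vit C at 96 h lay below UT at 8 h.

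PID1 encodes an adaptor with a phosphotyrosine-binding domain that interacts with the LDL receptor related protein LRP1 and is known from adipocytes. It had the lowest log2 difference at 8 h, -0.35 ± 0.23 (SE), with -2.53 and -2.60 on the UT arrays and -2.92, -2.78 and -3.03 on the vit C arrays. At 24 h the signal was -0.88, -0.98 and -1.31 in UT and -0.28 and 0.22 in vit C-treated cells. At 48 h it was 0.14 and 0.20 in UT and 2.06 and 1.71 in vit C-treated cells. The groups did not overlap at any of these, and the direction turned between 8 and 24 h. At 96 h the values were -0.37, -0.71 and 0 in UT and 1.85 and 1.76 in vit C-treated cells. The log2 difference was 1.03, 1.71 and 2.16 from 24 h on, with an SE of 0.23 to 0.25, or 2.04-, 3.28- and 4.48-fold. Slide as a further term gave -0.37, 1.01 and 1.87 at 8, 24 and 48 h, close to the fit without it. In vit C-treated cells PID1 had the widest range of group means of the 8 genes, 4.80.

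GFPT2 encodes glutamine-fructose-6-phosphate transaminase 2, which makes glucosamine-6-phosphate and so feeds the hexosamine pathway for protein glycosylation. Its promoter window had the most G and C bases of the members, 77.0%. At 8 h its signal was 0.93 and 0.95 in UT and 0.79, 0.89 and 0.92 in vit C-treated cells, a log2 difference of -0.07 ± 0.27 (SE). The 3 GFPT2 probes pointed in different directions at 8 h, so the gene was not tested there. At 24 h it was 2.95, 2.61 and 2.61 in UT and 4.14 and 3.81 in vit C-treated cells, and at 48 h 1.91 and 1.82 against 3.76 and 3.63. UT cells had their highest mean at 24 h, as did the vit C-treated cells, with a smaller loss to 48 h under vit C (0.28 against 0.86). At 96 h the signal was -2.12, -1.67 and -0.92 in UT and 0.13 and -0.16 in vit C-treated cells, below the 8 h values in both arms. The log2 difference was 1.25, 1.83 and 1.55 from 24 h on (SE 0.27 to 0.30), or 2.37-, 3.56- and 2.93-fold. Adding slide lowered it to -0.90, 0.42 and 1.07 at 8, 24 and 48 h. GFPT2 was the only member for which none of the 7 neighbouring pairs of group means overlapped.

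LBH encodes a transcription cofactor of limb and heart development and a known target of Wnt signalling. Its promoter window is shown as the only one among the members with a TATA box in the letters TATAAA, in capitals, which began 31 bases before the start and was in 11.5% of all windows. The bases are chr2:30231284-30231533, plus strand.
LBH: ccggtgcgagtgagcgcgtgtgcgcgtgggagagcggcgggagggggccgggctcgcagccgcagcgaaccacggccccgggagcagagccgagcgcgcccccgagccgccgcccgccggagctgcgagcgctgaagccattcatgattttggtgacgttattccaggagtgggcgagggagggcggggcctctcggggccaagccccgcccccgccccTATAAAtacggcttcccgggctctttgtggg

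The 2 probes of LBH, both assigned to the same transcript, did not run alike (r = 0.616 over the 19 arrays). The brightest gave -1.23 and -0.76 in UT and -0.15, -0.39 and 0.28 in vit C-treated cells at 8 h. At 24 h it gave -0.35, -0.58 and -0.06 against 0.67 and -0.24, and the groups overlapped. At 48 h it gave 0.06 and -0.08 against 0.55 and 1.67, and at 96 h -1.32, -0.47 and -2.04 against -0.28 and -0.47, so that at 96 h the nearest arrays of the groups were both at -0.47. Its log2 difference was 0.91, 0.54, 1.12 and 0.90 with an SE of 0.43 to 0.47, and none of its differences met the call rule. Single arrays moved it, to 0.09 at 24 h without vit C replicate 1 and 1.00 without vit C replicate 2, to 1.67 and 0.56 at 48 h without the same replicates in turn, and to 0.52 at 96 h without UT replicate 3. The second probe gave -0.86, -0.99 and -1.11 in UT and 0.08 and 0.65 in vit C-treated cells at 24 h. It gave -2.33, -2.33 and -1.31 against 1.04 and 1.08 at 96 h. Its log2 difference widened from 0.69 to 1.35, 2.15 and 3.05 (SE 0.29 to 0.32), or 8.28-fold at 96 h, and all calls of LBH rest on it. With slide as a term the brightest probe gave 0.85, 0.48 and 0.50.

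**Figure D2:**
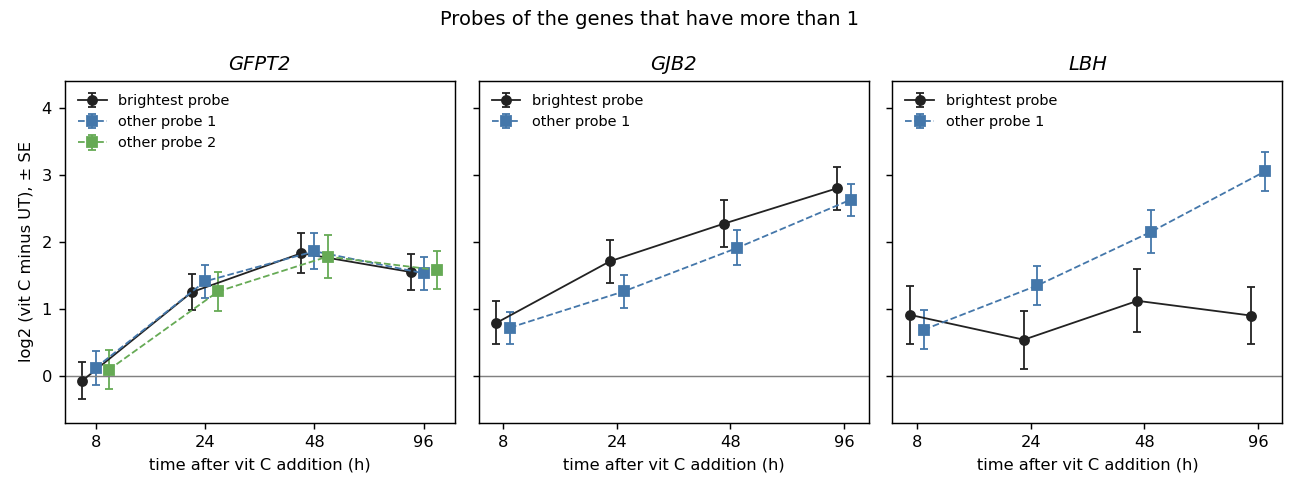
Log2 difference between vit C-treated and UT cells with its SE (vertical axis) at each time-point in h (horizontal axis, evenly spaced) for each probe of GFPT2, GJB2 and LBH, the 3 members with more than 1 probe. The probes of GFPT2 and GJB2 run together, while those of LBH reach 0.90 and 3.05 at 96 h.

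KIF25 encodes a kinesin of the family of minus-end directed motors that act on microtubules. It was the only member not well above background on every array. Its signal was -3.71 and -3.60 in UT and -2.78, -2.63 and -2.35 in vit C-treated cells at 8 h. At 24 h it was -4.95, -4.69 and -6.42 in UT, where 1 of 3 arrays was well above background, and -2.85 and -3.11 in vit C-treated cells, where both were. At 48 h it was -5.21 and -5.53 in UT, neither well above background, and -2.42 and -2.01 in vit C-treated cells. The fold at 48 h is therefore a lower bound, and KIF25 was at least 5.35-fold higher, counted from the lowest signal well above background on the UT arrays. At 96 h the values were -3.67, -2.80 and -2.89 in UT and -0.71 and -1.01 in vit C-treated cells. The log2 difference was 1.07 at 8 h, 2.37 at 24 h, where most UT arrays were not well above background, and 2.25 at 96 h (SE 0.41). With slide as a term it was 0.24 and 1.55 at 8 and 24 h. After background correction with normexp in place of the scanner software's signal it was 0.40 at 24 h and 0.96 at 48 h. The bound at 48 h holds for the scanner software's signal without a slide term. At 96 h the lowest difference over the alternative settings was 1.42. Over the 19 arrays KIF25 had the lowest correlation of the members with the mean of the other 7 (r = 0.28). Its mean was highest at 96 h in both arms, although the UT arrays at 96 and 8 h overlapped.

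**Figure D3:**
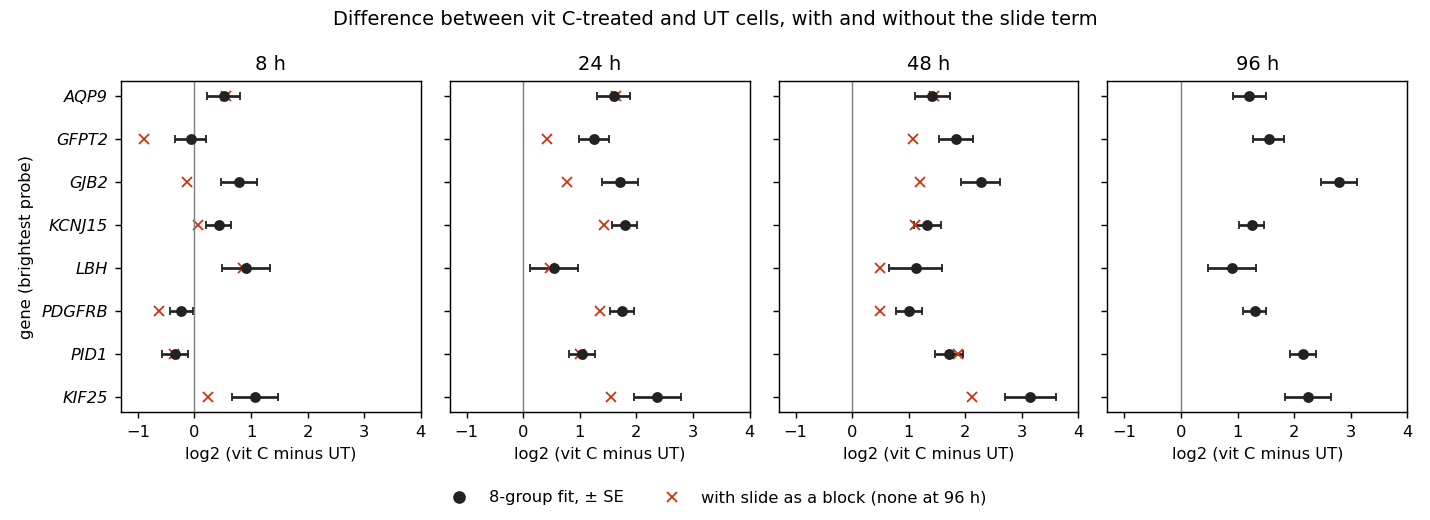
Log2 difference between vit C-treated and UT cells (horizontal axis) of the brightest probe of each member, in 1 panel per time-point. Black points with bars are the fit of 8 group means with its SE, and red crosses the fit with slide as a further term, which has no value at 96 h. The crosses lie between 0.42 and 2.12 at 24 and 48 h, and those at 48 h rest on the first vit C array alone. They lie below their points for all members but AQP9 at 24 h and for all but AQP9 and PID1 at 48 h. KIF25 at 48 h is set against UT arrays that were not well above background, so the size of its difference there was not measured.

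The 8 genes did not share 1 time course. In UT cells AQP9, GJB2, KCNJ15, LBH, PDGFRB and PID1 were highest at 48 h, GFPT2 at 24 h and KIF25 at 96 h. In vit C-treated cells GJB2 was highest at 96 h and the other 7 members at the time-point of their UT maximum. Over all 19 arrays the correlations of the 28 pairs of members ranged from -0.24 (GFPT2 and KIF25) to 0.96 (GJB2 and PID1) with a median of 0.40. Within the 10 UT arrays the range was -0.80 to 0.94 with a median of 0.11, and within the 9 vit C arrays it was -0.60 to 0.99 with a median of 0.55. These correlations describe arrays that share time-points and slides.

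The genes with the profile most like the mean of the members, out of 23151 compared over the 19 arrays, were IL11, an interleukin-6 family cytokine (r = 0.931), and SERPIND1, a thrombin inhibitor (r = 0.925), among named protein-coding genes. IL11 differed by -0.54, 2.27, 3.88 and 1.47 and SERPIND1 by 1.1, 3.44, 2.29 and 2.50 on the log2 scale at the 4 time-points. The other genes of the first 10 were the chemokine CXCL1 (r = 0.916), the chemokine receptor CXCR7 (r = 0.909), IQCG (r = 0.924), the ubiquitin ligase LNX1 (r = 0.908), and 4 entries without a gene symbol.

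The promoter windows of the 7 members with one held no motif of those searched in common. The SP1-type motif GGGCGG was in the windows of 6 members, all but AQP9, and in 45.0% of all windows. The C/EBP motif was in 2 (AQP9 and KCNJ15), and the HIF cores ACGTG and GCGTG were in 2 and 3, beside 21.4% and 36.5% of all windows. The NF-kappa-B motif was in GFPT2 (5.91% of all windows), the TCF/LEF-type motif CTTTGA in GJB2 (12.9%) and the ETS-type motif GAGGAA in KIF25 (27.9%). The cyclic AMP element TGACGTCA and the CArG box were in 0 windows of the members and in 1.85% and 1.29% of all. A match is a run of letters on either strand, not a site shown to be bound.

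Relatives and partners of the members were read from 8 lists, together 160 genes on the array besides the members. At 8, 24, 48 and 96 h, 119, 136, 131 and 133 of them were tested and 0, 2, 5 and 18 were called, of which 0, 0, 1 and 3 were higher. Their median log2 difference was -0.12, -0.20, 0.03 and -0.24, beside -0.05, -0.13, -0.01 and -0.15 over all genes. Of all genes tested, 0.223%, 0.839%, 1.53% and 10% were called lower at the 4 time-points, against 0, 1.47%, 3.05% and 11.3% of the relatives tested. At 96 h the split of calls depends on the scaling. There 719 of the 3363 called genes were higher, but 560 of 1000 with quantile normalization, and among the relatives 3 of 18 and 2 of 7. Calls named here rest on probes that stood well above background throughout 1 of the 2 groups or both. All kept their direction under the alternatives run for them, which leave out the mean of all probes and, at 96 h, slide as a fixed block. With the methods' t-test, dim probes left out or opposing probes kept, the differences are those of the fit of 8 group means. Their direction could not change there. All p-values adjusted over all genes come from limma.

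Among the channels and junction proteins related to AQP9, GJB2 and KCNJ15, the genes called by a probe well above background were GJA1, KCNJ2 and KCNJ10, each lower with vit C. Of 13 other aquaporins on the array, none was called by a probe well above background. AQP3, an aquaglyceroporin like AQP9, was well above background throughout and differed by -0.35, -0.73, -1.04 and -0.78 (SE 0.34 to 0.37), with q from 0.137 to 0.729 in limma, and AQP10 by -0.02 to 0.49. AQP7 was near background. Of the other connexins, GJA1 (connexin 43) fell by 1.94 at 96 h (q = 0.0371), whereas GJB2 was 2.80 higher. The call of GJA1 was lost when UT replicate 1, UT replicate 2 or vit C replicate 1 was left out, with quantile normalization, with the percentile over detected probes and with the replicate number as a block, and with normexp its difference was -1.19. GJB6 (connexin 30), the neighbour of GJB2 in the genome, was not well above background on any array. Of the other inward rectifiers, KCNJ2 (Kir2.1) fell by 1.60 at 48 h (q = 0.00331) and by 1.38 at 96 h (q = 0.00254), the first call being lost without UT replicate 2. Its mean signal at 48 h was 2.62 ± 0.39 (SD, n = 2) in UT cells against 1.02 ± 0.10 (n = 2) with vit C, where KCNJ15 was 1.33 higher. KCNJ10 (Kir4.1) fell by 1.79 at 96 h (q = 0.0108), or by 1.09 with normexp, a call lost without vit C replicate 2, and KCNJ16 (Kir5.1) was near background.

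Among the ligands and partners of PDGFRB, PDGFA, a ligand chain, fell by 1.90 at 96 h (q = 0.000155), from 1.66 ± 0.04 (SD, n = 3) in UT to -0.24 ± 0.19 (n = 2) with vit C. PDGFC differed by -0.44 to -0.13 and was tested at 48 h alone (q = 0.906). The receptor PDGFRA was well above background on all 19 arrays and differed by 0.01, 0.82, -0.18 and -0.10, tested at 24 h alone (q = 0.228). PDGFB and PDGFD were near background. KIT, a receptor kinase of the same class, was well above background on both UT arrays at 48 h and on all 3 at 96 h and on no vit C array at either. The KIT signal of vit C-treated cells was at least 2.07-fold lower than that of UT cells at 48 h (q = 0.00196), and at 96 h at least 8.26-fold lower (q = 0.000263). These bounds hold for the scanner software's signal. With normexp background correction the log2 difference was -0.55 at 48 h, which was not called, and -1.52 at 96 h. SPARC, a matrix protein that binds PDGF, rose by 1.98 at 96 h (q = 0.00504), a call lost without vit C replicate 1. PLAT, the tissue plasminogen activator, which can activate PDGF ligands, rose by 1.91 at 48 h (q = 0.0345), a call lost without any 1 of the 4 arrays, with normexp (0.87) and with the replicate number as a block.

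Of 21 LDL receptor family genes and adaptors, 0 were called at any time-point. LRP1 differed by -0.66, -0.68, 0.94 and 0.79 (q from 0.212 to 0.549, SE 0.40 to 0.44). Of 16 genes of the hexosamine pathway and O-GlcNAc, 1 was called. GFPT1, the paralogue of GFPT2 and the broadly expressed form of the enzyme, differed by -0.31, -0.20, 0.18 and 0.12 with an SE of 0.25 to 0.27 (q from 0.659 to 0.881). HK2, a hexokinase, was called at 96 h through 1 of its 2 probes (1.51, q = 0.0182), while its brightest gave 0.41, and the call was lost without either vit C array. Of 21 Wnt pathway targets and feedback genes, 1 was called lower at 24 h and 1 at 48 h, and at 96 h 1 was called higher and 4 lower of 15 tested. LEF1, a transcription factor and target of the Wnt pathway, fell by 1.41 at 48 h (q = 0.0118) and by 2.02 at 96 h (q = 0.000299), the first call being lost without any 1 of the 4 arrays. WNT5A, a Wnt ligand, rose by 1.18 at 96 h (q = 0.0367), a call lost without any 1 array other than UT replicate 3, with quantile normalization, with normexp (0.68) and with the replicate number as a block, and AXIN2, a feedback inhibitor of the pathway, was near background. Of the other 39 kinesins, 1 was called lower at 48 h and 2 of 32 tested at 96 h, the latter by probes not well above background throughout a group. KIF21A fell by 1.14 at 48 h (q = 0.045), again lost without any 1 array, with normexp (-0.90), with opposing probes kept and with slide as a random or the replicate number as a fixed block. KIFC1 and KIFC3, minus-end directed kinesins like KIF25, differed by -0.18 to 0.68 (q from 0.481 to 0.973) and by -0.54 to 0 (q from 0.566 to 1). In the fit with slide, 0 of the 5 relatives called at 48 h were called, and all 5 kept their direction.

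**Figure D4:**
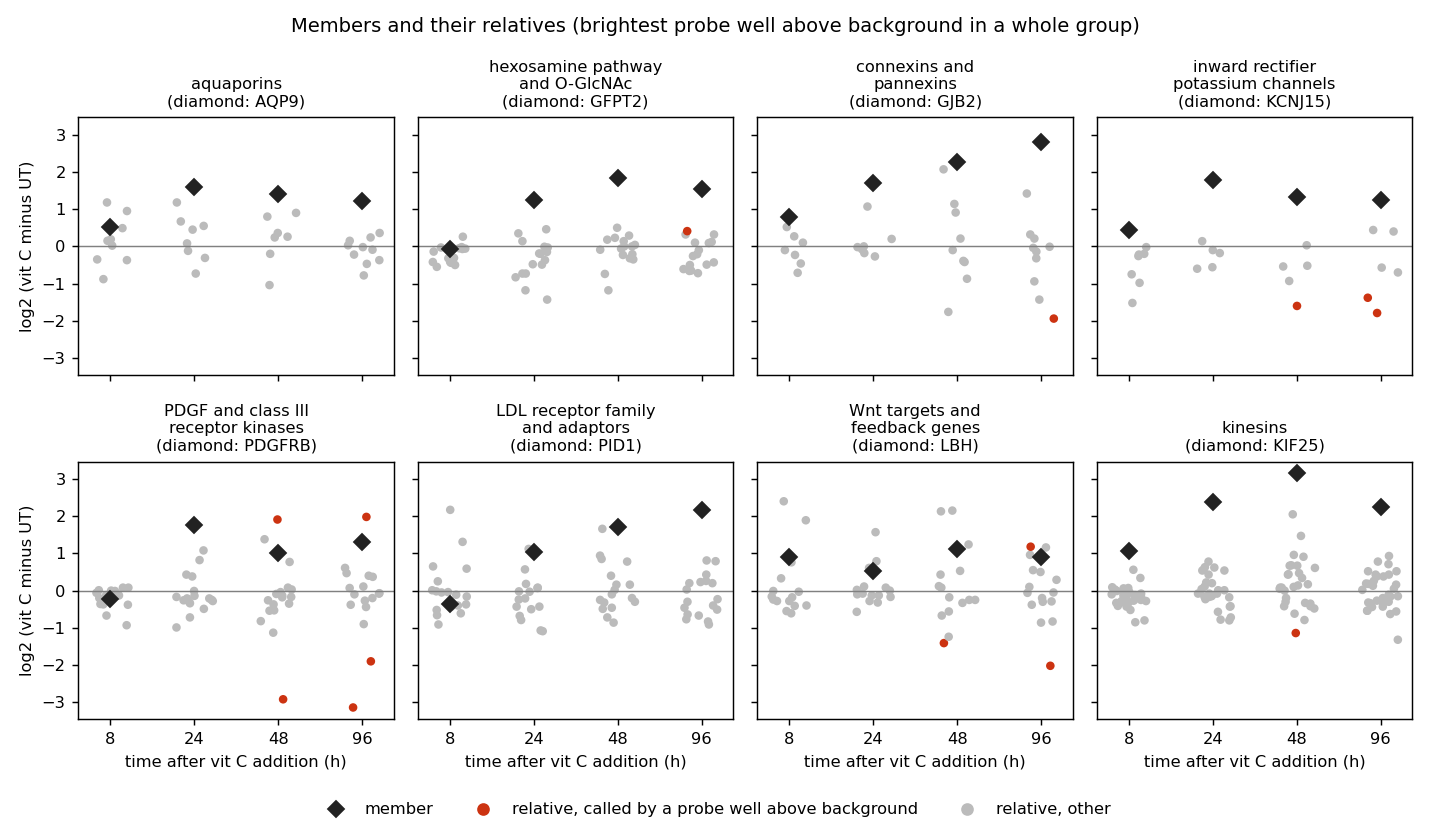
Log2 difference between vit C-treated and UT cells (vertical axis) at each time-point in h (horizontal axis, evenly spaced), in 1 panel per list of relatives. Black diamonds are the members, and dots the relatives whose brightest probe was well above background on all arrays of a group, red where called (HK2 by its other probe). At 96 h, 6 relatives called by such probes were lower and 3 higher.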

How the data were processed

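Total RNA of PMA-differentiated THP-1 cells was labelled with Cy3 and hybridized to a custom Agilent human array. The authors extracted spot intensities with Agilent Feature Extraction (10.5.1.1 per the file headers), and this linear processed intensity is detrended but not normalized between arrays. For the deposited series matrix the authors took the signal to log2 and shifted it to each array's 75th percentile. Here the intensities were taken to log2, the 75th percentile over non-control spots was subtracted and replicate spots were averaged, leaving 50238 probes that name 31033 genes. Names follow the array design.

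Groups were taken from the labels, and arrays of a group were treated as biological replicates as in the methods. A model of 8 group means over 19 arrays (limma 3.58.1, lmFit and eBayes, R 4.3.3, 11 residual degrees of freedom) gave vit C minus UT at each time-point, 2-sided. A gene was called when any probe changed by 1 or more on the log2 scale with q no higher than 0.05 (Benjamini-Hochberg), after genes with opposing probes had been removed. Where the probe was not well above background on any array of a group, the fold is a lower bound counted from the lowest signal well above background on those arrays. The number of arrays limits the precision.

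The members, and the lists of relatives, partners and marker genes, were chosen with earlier results of these data known, and 1 relative is not reported here and stands in no count of relatives. Named are the members, relatives called by a probe well above background on all arrays of a group, a fixed set of close relatives, the 10 genes with the most similar profile and marker genes. Likeness was the Pearson correlation with the mean standardized signal of the members. Promoter windows came from RefSeq (GRCh38.p14), and motifs were searched in windows of 300 bases on both strands. The alternatives were the methods' t-test, quantile normalization, the percentile over detected probes, normexp (offset 50), the series matrix values, dim probes left out, opposing probes kept, the mean of all probes, the replicate number as a block, slide as a block (fixed, or random), and each array left out. Figures were drawn with matplotlib.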

Additional observations from a re-analysis of the deposited data

Results flagged for a closer look

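Among the relatives, partners and marker genes named in the report, the effect of vit C differed between the 4 time-points for 6 genes, by an F test in limma that the 4 effects are equal, with Benjamini-Hochberg adjustment over all probes. KCNJ2, the inward rectifier Kir2.1, differed by -0.02, -0.10, -1.60 and -1.38 on the log2 scale at 8, 24, 48 and 96 h (q = 0.0338). PDGFA, a ligand chain of the PDGF receptors, differed by -0.06, -0.49, -0.54 and -1.90 (q = 0.0293). KIT, a class III receptor kinase, also passed this test (q = 0.0143), but it was not well above background on any vit C array or on any UT array at 24 h, so that the sizes of its differences were not measured and the test rests in part on signals near background. SPARC, a matrix protein, differed by 1.38 and 1.98 at 48 and 96 h (q = 0.0345). At 8 h 1 of 2 UT arrays and no vit C array measured it well above background, and at 24 h 1 of 3 UT arrays did, so that its test too rests in part on signals near background. LEF1, a transcription factor of the Wnt pathway, differed by -0.16, -0.17, -1.41 and -2.02 (q = 0.0291). LUM, a matrix proteoglycan of fibroblasts, gave q = 0.000125 and was well above background on the vit C arrays at 48 and 96 h alone, so that its differences have lower bounds only. With slide as a further term the difference at 48 h was -1.49 for KCNJ2 and -1.95 for LEF1. Neither was called in that fit, nor was KIT, while LUM was. The F test was not run with slide as a term, and at 96 h slide and vit C cannot be told apart. Groups of 2 or 3 arrays are too small to look for an array that stands apart from its group.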

How the results depend on the processing

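The 8 members were chosen for being higher with vit C from 24 h on, so the sign of their differences is no measure of stability. Over the alternatives their log2 differences were 0.09 to 2.70, 0.50 to 3.36 and 0.52 to 3.22 at 24, 48 and 96 h, with KIF25 at 48 h taken at its measured signal although it has only a bound there. Their median at 8 h, 0.48, turned to -0.03 with slide as a fixed block, which gave no value at 96 h. The number of genes called at 8, 24, 48 and 96 h (139, 437, 926 and 3363) and of relatives called (0, 2, 5 and 18) depended more on the processing, and the cause was not tested. The methods' t-test called 11, 0, 1 and 0 genes, with 0 members and 0 relatives. At an unadjusted p of at most 0.05 in limma, 1771, 2242, 2456 and 4913 genes passed. With slide as a fixed block 9, 20 and 138 genes were called at 8, 24 and 48 h, again with 0 members and 0 relatives. With slide as a random block (correlation 0.0381) 83 genes were called at 8 h, and 1 relative at 24 h. Quantile normalization gave 1000 genes at 96 h and 9 and 7 relatives at 48 and 96 h, and the percentile over detected probes gave 1442 genes and 11 relatives at 96 h. Normexp gave 249, 459 and 822 genes at 24, 48 and 96 h, and 1, 1 and 9 relatives at 8, 24 and 96 h. It moved the median of all genes by -0.25 at 96 h and turned the difference of the granulocyte marker ELA2 at 96 h from 1.48 to -0.05. Leaving out dim probes gave 1014 genes at 96 h and 1 and 9 relatives at 24 and 96 h, and keeping opposing probes gave 1 relative at 24 h. The median of the members moved to 1.19 and 1.20 at 24 and 48 h with normexp, to 1.18 and 1.15 with slide as a fixed block, and to 1.77 at 96 h with the mean of all probes.

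With 1 array left out, 14 to 83, 92 to 368, 281 to 536 and 479 to 5965 genes were called, and 0 to 1, 0 to 2, 2 to 3 and 5 to 38 relatives. The highest count at 96 h came without UT replicate 3 and the lowest without vit C replicate 1. Of the members, 2 to 6, 5 to 6 and 4 to 8 were called at 24, 48 and 96 h, fewest without vit C replicate 2 at 24 h and without vit C replicate 1 at 96 h. The lone array of a group is then assumed to vary like the other groups.

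Arrays with the same replicate number did not deviate together, with correlations of -0.34 to 0.13 over 8 pairs, so the number is not taken as a pairing. The numbers are those of the sample titles. At 48 h the sample descriptions number the arrays otherwise, which keeps the same pairs of arrays at 48 h but would change the block. With the replicate number as a block, 43 and 1205 genes were called at 8 and 96 h, and 3 and 11 relatives at 48 and 96 h.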
